A study of Mus musculus with 8 samples.

Results

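The sites described here are 1680 regions of the mouse genome at which C/EBPα, a transcription factor, was detected after loss of Trib1 and not in the matched controls, out of 113353 sites found in the whole series. They were chosen from 8 lists of chromatin immunoprecipitation peaks. Peaks that overlapped by at least 1 bp across the lists were joined into sites. A site was kept when both libraries of group Trib1_LSKO and neither library of group Trib1_WT called it, which held for 3569 sites. Of these, 1832 were left out because they were also gained in the second experiment (both AAV_Cebpa libraries, no AAV_Null library), and 57 because they were lost there (both AAV_Null, no AAV_Cebpa). The remaining 1680 are 47.1% of all gained sites. The count depends on how many libraries the rule asks for: it was 4767 and 4236 without Trib1_LSKO replicate 1 and 2, and 2778 and 3201 without Trib1_WT replicate 1 and 2.

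All 8 libraries were made from mouse liver with the same antibody against C/EBPα, with 2 libraries in each of 4 groups. Trib1_LSKO mice carried floxed Trib1 alleles and were given an adeno-associated virus (AAV) vector for Cre recombinase at 1.5e11 gc. Trib1_WT mice carried the same floxed alleles and received the same dose of an empty AAV vector. AAV_Cebpa mice were wild type and received 1e12 gc of a vector coding for C/EBPα, and AAV_Null mice were wild type and received 1e12 gc of an empty vector. Every mouse was 8 to 10 weeks old, of strain C57B/6 by the labels, fed chow and fasted for 4 hours before harvest. The sources used here give neither the promoter that drives Cre or C/EBPα nor whether a library came from 1 animal or from several. The loss of Trib1, the amount of C/EBPα and the cell types of the tissue were not measured, since the lists give positions and signal alone.

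C/EBPα is a basic leucine zipper factor that binds DNA as a dimer and drives many genes of differentiated hepatocytes, including genes of lipid and glucose metabolism. Trib1 encodes Tribbles-1, a pseudokinase that acts as a scaffold: it holds C/EBPα next to the ubiquitin ligase COP1, which marks C/EBPα for degradation. The study asks how this control of C/EBPα bears on lipogenesis in the liver.

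The lists held 50075 and 53072 peaks in Trib1_LSKO, 53327 and 54691 in Trib1_WT, 59564 and 80394 in AAV_Cebpa, and 46348 and 49052 in AAV_Null. Signal values were whole multiples of 1 step per library, so the step gives each library's depth relative to the shallowest one, AAV_Null replicate 1. That depth was 1.18 and 1.28 in Trib1_LSKO and 1.14 and 1.93 in Trib1_WT, so 1 of the control libraries in which these sites are absent was deeper than both libraries that hold them. It was 1.85 and 2.27 in AAV_Cebpa, against 1 and 1.17 in AAV_Null. The weakest listed peak held 8 tags in each Trib1_LSKO list, 7 and 11 tags in the Trib1_WT lists, 11 and 12 in the AAV_Cebpa lists and 8 in each AAV_Null list. Signals are values the authors gave to their peaks. They are read below only within 1 list, mostly as percentiles, with the strongest peak at 100.

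The 1680 sites were mostly weak. Their median percentile was 25.9 in Trib1_LSKO replicate 1 (interquartile range 12.8 to 42.1) and 24.9 in replicate 2 (13.4 to 40.7). In tags this is a median of 19 (95% Poisson interval 11.4 to 29.7, for counting error only) and 20 (12.2 to 30.9), against 32 and 36 tags for the median peak of the same lists. Both lists placed 689 of the sites (41.0%) in their weakest 25% and 195 (11.6%) in their strongest 50%, and 5 sites (0.298%) were in the strongest 10% of both. The 2 replicates ranked the sites alike, with a Spearman rho of 0.775 over the 1680 sites, and of 0.922 over the 42436 sites called in both lists. These points share libraries and a calling threshold, so both values are descriptions. The called positions were close as well: midpoints of the 2 Trib1_LSKO peaks lay a median of 17 bp apart, against 11 bp at the 24318 sites called in all 8 lists. They were more than 50 bp apart at 147 sites (8.75%), against 4.08% of the sites called in all 8.

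Because the rule used these lists, the strength is given without a test, beside sites on both sides of the rule. Without either Trib1_LSKO library in turn, the median percentile in the one that remained was 15.9 and 15.7. The mean Trib1_LSKO percentile had a median of 24.3 over the 1680 sites, against 28.5 over the 2616 sites that differ only in having a peak in 1 Trib1_WT list. That Trib1_WT peak had a median percentile of 24.4. Sites with a peak in only 1 Trib1_LSKO list and none in Trib1_WT numbered 5628, with a median of 10.5 in that list. Sites with 1 control peak were thus close in strength to those with none, and sites that missed the second Trib1_LSKO list were weaker.

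**Figure D1:**
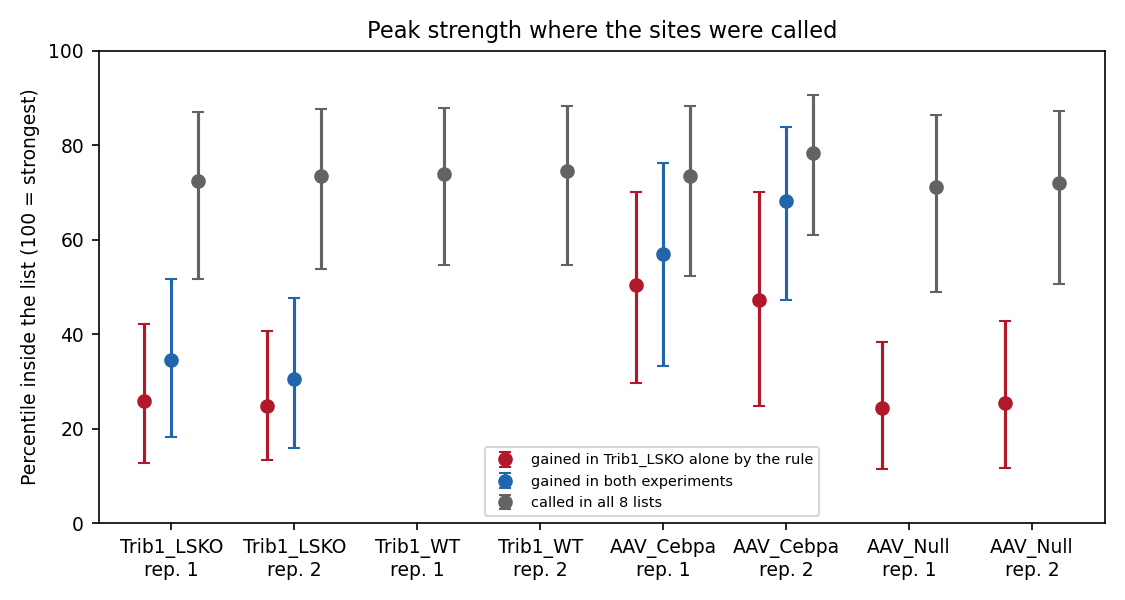
Percentile of peak signal inside each list (vertical axis, 100 = strongest) for the sites described here, for sites gained in both experiments and for sites called in all 8 lists, where the list in question called them; points are medians and bars interquartile ranges over sites. In the Trib1_LSKO lists the medians of the 1680 sites are 25.9 and 24.9, against 34.5 and 30.5 for sites gained in both experiments and 72.3 and 73.6 for sites called in all 8.

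The working name of this set, gained in the knockout alone, holds for 476 of the 1680 sites when judged by overlap of peaks. Those 476 (28.3%, 95% Wilson interval 26.2% to 30.5%, counting of sites only) were called in no list of the second experiment. Of the 476, 88 (18.5%) still had a peak of that experiment within 500 bp, and 39 (8.19%) within 200 bp. The other 1204 (71.7%) were called in at least 1 of its lists. The rule removes 2 of the 9 possible patterns of calls in AAV_Cebpa and AAV_Null, so these shares are descriptions and were not tested. They are set beside 33682 sites that were called in both Trib1_LSKO lists and at least 1 Trib1_WT list and that obey the same exclusions. Of all 113353 sites, 11.5% were called in no list of the second experiment and 88.5% in at least 1, and of the 33682 sites 3.31% and 96.7%. Without AAV_Cebpa replicate 2 the share in no list was 48.0%, and without AAV_Cebpa replicate 1 it was 37.9%. Without AAV_Null replicate 1 and 2 it was 36.7% and 35.6%. Leaving out an AAV library also changes the exclusions, since its group then needs a peak in, or absence from, only 1 list. For scale, 3.15% of all sites were gained in Trib1_LSKO, 19.5% were gained in AAV_Cebpa and 5.33% were lost there. The last 2 kinds count among all sites and are left out of the 1680 and of the 33682.

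At least 1 AAV_Null list, from the other control group, called 869 of the sites (51.7%, interval 49.3% to 54.1%), against 50.8% of all sites and 94.6% of the 33682 sites. All sites include those gained (19.5%) or lost (5.33%) in AAV_Cebpa, which the rule leaves out of the set. The 2 shares thus have unlike bases, and their nearness is not read as a result. Both AAV_Null lists called 295 (17.6%), against 33.4% of all sites and 81.2% of the 33682. By library, 610 sites (36.3%) were called in AAV_Null replicate 1 and 554 (33.0%) in replicate 2, where all sites were called in 40.9% and 43.3% of cases. Without AAV_Null replicate 1 the share in AAV_Null was 35.7%, and without replicate 2 it was 38.6%, with the exclusions changed as above.

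At least 1 AAV_Cebpa list, from livers given the vector for C/EBPα, called 1117 sites (66.5%, interval 64.2% to 68.7%), against 74.2% of all sites and 94.5% of the 33682. Both called 629 (37.4%), against 49.3% and 83.7%. The shares of all sites, 74.2% and 49.3%, include the 19.5% gained in AAV_Cebpa, which the rule leaves out of the set. By library these were 707 sites (42.1%) in AAV_Cebpa replicate 1 and 1039 (61.8%) in replicate 2, the library with the longest list and the greatest depth. Without replicate 2, and with the exclusions changed as above, 41.4% of the sites were called in AAV_Cebpa. Where called, the median percentile was 50.4 and 47.2 in AAV_Cebpa, against 24.4 and 25.4 in AAV_Null. The 4001 sites in both Trib1_LSKO lists and 1 Trib1_WT list, without the AAV exclusions, had medians of 48.3 and 56.2 in AAV_Cebpa. Their AAV_Null medians were 26.9 and 29.4, so the contrast was not particular to the set. The rule also keeps a site with both AAV_Cebpa peaks only where an AAV_Null list called it. These percentiles come from lists of 59564 and 80394 peaks in AAV_Cebpa and of 46348 and 49052 in AAV_Null. With all 8 lists reduced to equal length, which gave 1989 sites, 51.2% were called in AAV_Cebpa and 47.9% in AAV_Null, so the shares lay closer together than with the lists as deposited. The part of depth was not tested.

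The patterns of calls differed in strength. The 388 sites called in both AAV_Cebpa lists and 1 AAV_Null list (23.1%, against 5.36% of all sites and 9.24% of the 33682) missed the definition of gained in both experiments by a single AAV_Null peak. That peak was in AAV_Null replicate 1 at 228 of them, with a median percentile of 18.4, and in replicate 2 at 160, with 16.6. At these 388 sites the AAV_Cebpa medians were 50.4 and 61.4 and the Trib1_LSKO medians 32.5 and 28.7. The 241 sites called in all 4 lists of the second experiment (14.3%, against 24.4% of all sites and 74.5% of the 33682) were the strongest pattern, with medians of 36.5 and 34.1 in Trib1_LSKO, 59.4 and 66.0 in AAV_Cebpa, and 34.2 and 31.3 in AAV_Null. The 476 sites in no list of the second experiment had Trib1_LSKO medians of 20.8 and 20.4. So did the 335 sites with a peak in 1 AAV_Cebpa list and none in AAV_Null, of which 285 had it in AAV_Cebpa replicate 2. They were 19.9% of the 1680 sites, against 18.2% of all sites and 2.13% of the 33682. A further 99 sites (5.89%, against 3.02% and 1.99%) had 1 peak in each group. The remaining patterns were 1 AAV_Null peak alone, at 87 sites (5.18%, against 8.98% and 2.16%), and 1 AAV_Cebpa peak with both AAV_Null peaks, at 54 (3.21%, against 3.63% and 6.66%).

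**Figure D2:**
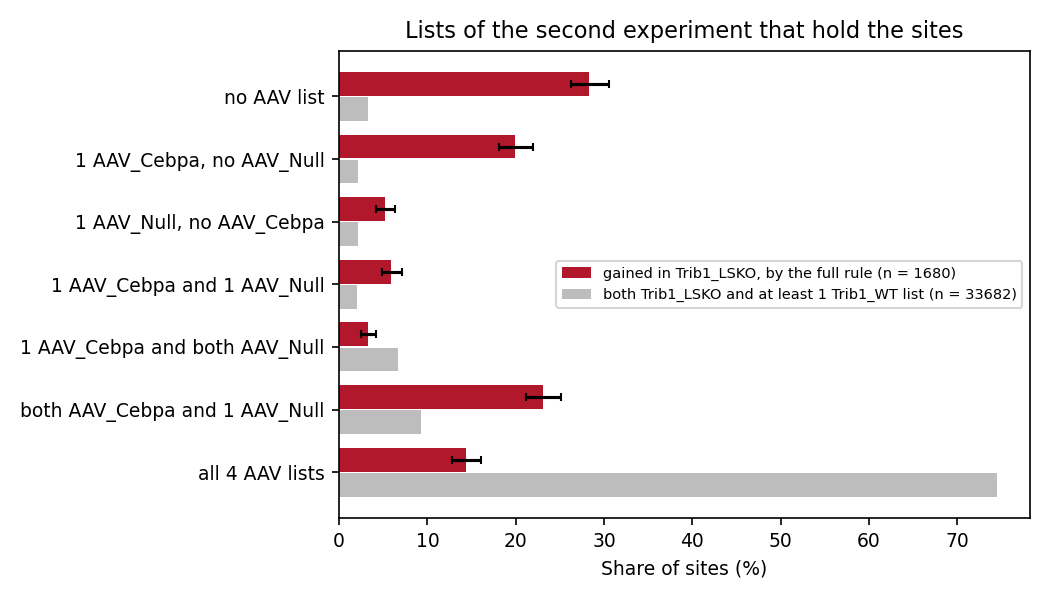
Share of sites (horizontal axis, percent) in each pattern of calls over the 2 AAV_Cebpa and 2 AAV_Null lists, for the 1680 sites and for the 33682 sites that were also called in Trib1_WT; error bars are 95% Wilson intervals over sites. The 1680 sites are spread over the patterns, with 28.3% in no AAV list and 14.3% in all 4, against 3.31% and 74.5% of the other sites.

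The 10 strongest sites show 2 arrangements. At 6 of the 10, a Trib1_WT peak lay within 200 bp of the site's edge, so C/EBPα was called in the controls next to the site rather than in it. At the others the nearest Trib1_WT peak was farther off or very weak. Positions are in build mm9, 1-based, and the sites are numbered by their mean percentile in the Trib1_LSKO lists.

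Site 1, chr1:145748323-145748567, had a signal of 93.3 and 108.4 in the 2 Trib1_LSKO lists (145 and 182 tags), at percentiles of 97.6 and 98.6. No Trib1_WT peak lay within 5553 bp of its edge. It was called in AAV_Cebpa at percentiles of 84.6 and 85.8 and in AAV_Null replicate 1 at 7.54, and not in AAV_Null replicate 2. Site 9, chr2:29648366-29648606, had the same calls: percentiles of 91.6 and 82.3 in Trib1_LSKO, 97.4 and 99.3 in AAV_Cebpa and 3.55 in AAV_Null replicate 1, with the nearest Trib1_WT peak 4559 bp away. Both sites were high in the 4 treated libraries and had 1 peak near the floor of an AAV_Null list.

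Sites 6 and 10 are neighbours on chromosome 9. Site 6, chr9:7569760-7569967, was at percentiles of 92.6 and 90.4 in Trib1_LSKO, 80.3 and 82.4 in AAV_Cebpa and 3.55 in AAV_Null replicate 1. Site 10, chr9:7571236-7571486, was at 89.2 and 84.1 in Trib1_LSKO, 79.5 and 89.2 in AAV_Cebpa and 7.54 in AAV_Null replicate 1. The closest Trib1_WT peak was 608 bp from site 6 and 462 bp from site 10 and was weak, at percentile 2.22 of its list. Both sites of this pair were thus strong in every Trib1_LSKO and AAV_Cebpa library.

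Site 2, chr1:164822251-164822488, is of the other kind. Its percentile was 97.2 in each Trib1_LSKO list, 93.5 and 96.8 in AAV_Cebpa, and 83.3 and 80.6 in AAV_Null. A Trib1_WT peak at percentile 94.98 lay 85 bp from its edge. Site 3, chr5:51987162-51987385, was at 94.0 and 94.9 in Trib1_LSKO, 95.8 and 98.9 in AAV_Cebpa, and 59.3 and 48.2 in AAV_Null, with a Trib1_WT peak at percentile 89.0 lying 60 bp away. Site 4, chr13:35107886-35108146, was at 92.01 and 93.3 in Trib1_LSKO, 90.1 and 91.6 in AAV_Cebpa, and 85.4 and 86.0 in AAV_Null, with a Trib1_WT peak at 95.6 lying 30 bp away. These 3 are the strongest of the sites called in all 4 lists of the second experiment, and each was flanked by a strong Trib1_WT peak.

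Site 5, chr10:17996035-17996234, was called in both Trib1_LSKO lists and in none of the other 6. It had a signal of 60.5 and 78.6 (94 and 132 tags), at percentiles of 89.8 and 94.1. Each of the other 6 lists nevertheless had a peak beside it, with midpoints 218 to 262 bp from the site's midpoint, and a Trib1_WT peak at percentile 85.4 lay 34 bp from its edge. The next strongest sites absent from the second experiment were chr13:105431175-105431390, at percentiles of 76.8 and 85.1 in Trib1_LSKO, and chr12:43536438-43536650, at 73.7 and 78.6. At these 3 sites together, the nearest peaks of the other 6 lists had midpoints 218 to 322 bp away, at percentiles of 58.7 to 89.98 of their lists. All 3 thus stood beside a peak that every other library called.

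Site 7, chr3:9725332-9725598, was at percentiles of 94.2 and 86.7 in Trib1_LSKO, 97.7 and 99.0 in AAV_Cebpa and 44.2 in AAV_Null replicate 1, with a Trib1_WT peak at 34.6 lying 82 bp away. Site 8, chr9:15973459-15973678, was at 86.7 and 91.3 in Trib1_LSKO and 85.2 in AAV_Cebpa replicate 1, with a Trib1_WT peak at 73.3 lying 136 bp away. Of the 10 sites, 8 were called in both AAV_Cebpa lists, against 37.4% of the 1680 sites and 49.3% of all sites. AAV_Null replicate 1 called 8 of the 10 and AAV_Null replicate 2 called 3. These 2 libraries called 36.3% and 33.0% of the 1680 sites, and 40.9% and 43.3% of all sites. The rule keeps a site with both AAV_Cebpa peaks only where an AAV_Null list called it. The counts at the 10 sites are therefore not read as a difference between the AAV_Null libraries.

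**Figure D3:**
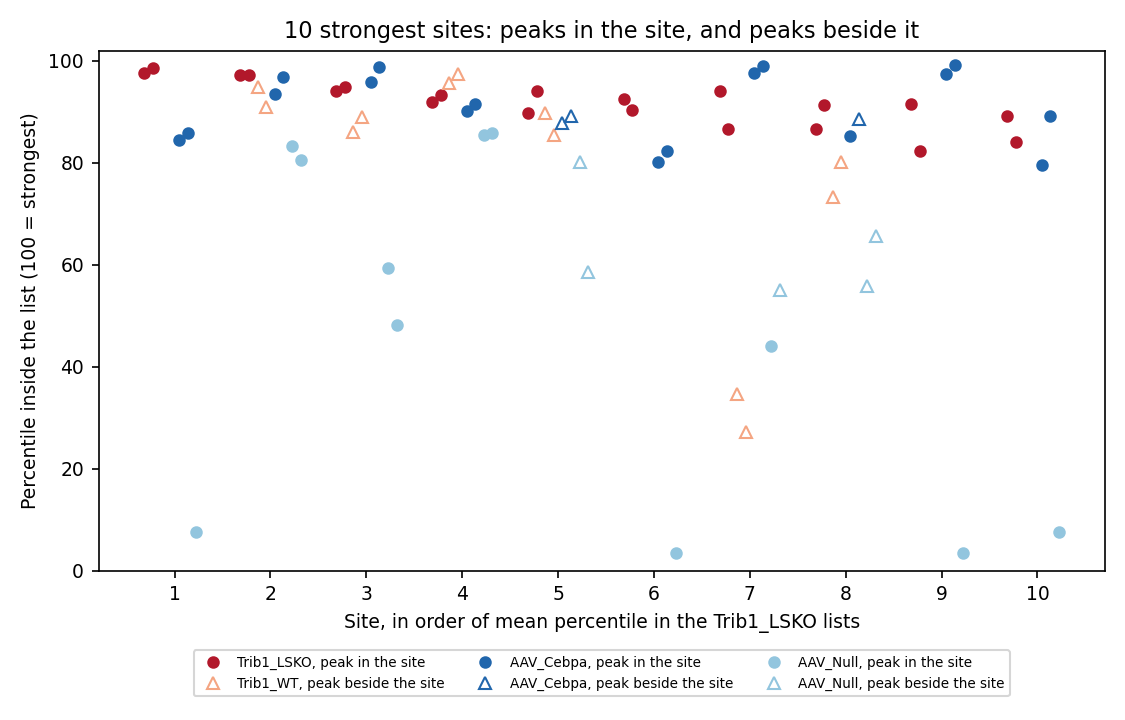
Percentile inside each list (vertical axis, 100 = strongest) at the 10 strongest sites, numbered as in the text; filled circles are peaks in the site and open triangles are peaks of libraries with none in the site whose midpoint lay up to 400 bp from the site's midpoint. Trib1_WT triangles stand beside sites 2, 3, 4, 5, 7 and 8, and site 5 has triangles of all 6 other libraries.

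Peaks beside the sites were compared with the spacing of peaks inside the lists. The closest 2 peaks of the same list had midpoints 333 bp apart in Trib1_WT replicate 1 and 373 bp apart in replicate 2, and between 263 and 376 bp apart in the other 6 lists. A Trib1_WT peak whose midpoint was nearer to the site's midpoint than any 2 peaks of its own list were to each other was found at 49 of the 1680 sites (2.92%) in at least 1 Trib1_WT list and at 27 (1.61%) in both. Among the 100 strongest sites it was found at 15 in at least 1 list and at 13 in both, and among the 10 strongest at 6. Whether this spacing played a part in the absence of a call in Trib1_WT was not tested.

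Over the whole set, 163 sites (9.70%, 95% Wilson interval 8.38% to 11.2%) had a Trib1_WT peak within 500 bp of the edge. The share was 6.39% (5.36% to 7.60%) of the 1832 sites gained in both experiments. It was 10.4% (9.32% to 11.6%) of the 2849 sites lost in Trib1_LSKO alone, where the nearest Trib1_LSKO peak was taken. A site that was itself lost in Trib1_LSKO lay within 500 bp of 41 of the 1680 sites (2.44%). Lost sites were 3.23% of all sites, a share of another kind that is not a background for the 2.44%. The 163 sites had a median of 41.1 for the mean Trib1_LSKO percentile, against 23.5 for the other 1517. The sites were also split by strength into 10 groups of 164 to 176, after the values were seen. The share with a Trib1_WT peak within 500 bp was 25.6% in the strongest group (43 of 168) and 5.92% in the weakest (10 of 169). In the strongest group 23 sites (13.7%) had one within 200 bp, against 3 (1.78%) in the weakest. The share was thus highest among the strong sites, and it lay between 4.17% and 9.70% in the 7 weakest groups.

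The closest Trib1_WT peak that did not overlap was 6 bp from a site's edge, and 24 sites had one within 50 bp, with a median of 42.5 for the mean Trib1_LSKO percentile. Just across the overlap rule were 38 sites with calls in Trib1_LSKO and Trib1_WT whose midpoints in the 2 groups were all at least 150 bp apart, with a median of 39.6.

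**Figure D4:**
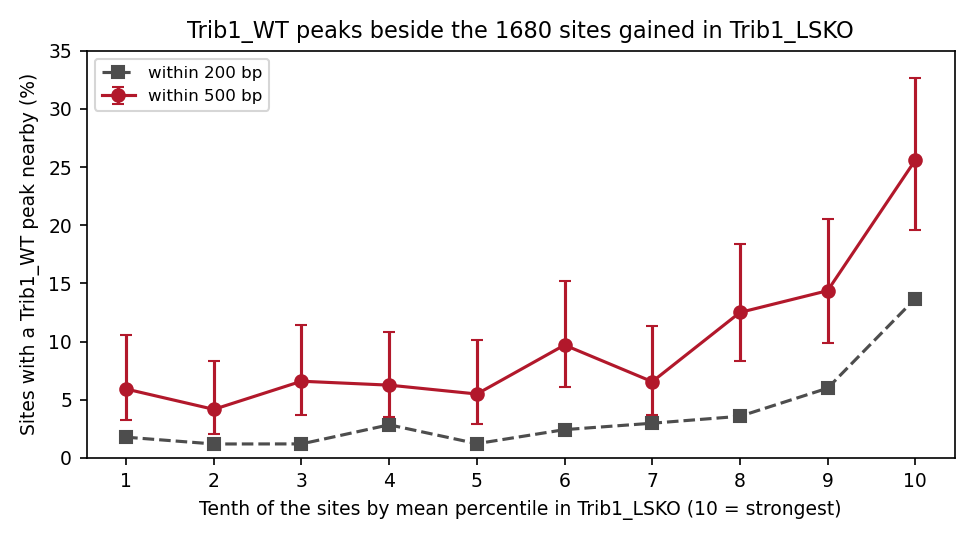
Share of the 1680 sites with a Trib1_WT peak within 500 bp (circles, with 95% Wilson intervals over sites) or 200 bp (squares) of the edge (vertical axis, percent), in 10 groups by mean percentile in the Trib1_LSKO lists (horizontal axis, 10 = strongest). The strongest group stands at 25.6% and 13.7%, the weakest at 5.92% and 1.78%.

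Sites with no Trib1_WT peak within 1000 bp were picked out as well, after the values had been seen. The 5 strongest of them were sites 1 and 9 above, then chr15:83963925-83964168, chr5:31337141-31337355 and chr10:99119527-99119758. The site on chromosome 15 was at percentiles of 81.4 and 86.7 in Trib1_LSKO, 60.2 and 71.2 in AAV_Cebpa and 18.4 in AAV_Null replicate 1. The site on chromosome 5 was at 93.7 and 70.7, 73.9 and 89.2, and 34.2 in the same lists. The site on chromosome 10 was at 87.1 and 76.8, 88.5 and 88.4, and 69.0, and its nearest Trib1_WT peak was 24088 bp away. All 5 were called in both AAV_Cebpa lists and in AAV_Null replicate 1, and none was called in AAV_Null replicate 2. With both AAV_Cebpa peaks, the rule kept them only because an AAV_Null list called them.

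Peaks of Trib1_LSKO alone, with nothing of the other 6 lists within 1000 bp, were found at 330 of the 1680 sites (19.6%), with a median of 18.4 for the mean Trib1_LSKO percentile. They were 0.778% of the 42436 sites called in both Trib1_LSKO lists, and none of those that lay outside the 1680 met this condition, since the rule and the condition overlap. Among the 2849 sites lost in Trib1_LSKO alone, 832 (29.2%) had no peak of the 6 lists outside Trib1_WT within 1000 bp, so sites seen in a single group were not particular to Trib1_LSKO. The 3 strongest of the 330 gained sites, without chromosome 18 and again chosen after the values were seen, were chr9:13701927-13702134, chr6:57490368-57490571 and chr2:137664687-137664894. The first was at percentiles of 76.8 and 73.6 in the Trib1_LSKO lists, with a signal of 39.2 and 38.1 (61 and 64 tags). The second was at 70.9 and 76.3 (52 and 69 tags) and the third at 72.3 and 68.6 (54 and 56 tags). The nearest Trib1_WT peak was 6989 bp from the site on chromosome 9 and 31063 bp from that on chromosome 2. It was 1224 bp from the site on chromosome 6, at percentile 89.3 of its list. Each of the other 6 lists had a peak with its midpoint 1405 to 1442 bp from that of the chromosome 6 site. At these sites both Trib1_LSKO libraries held a peak of more than 50 tags, and no other library held one within 1000 bp.

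Peaks flanking the sites were counted in the 2 groups of the first experiment. The share of the 1680 sites with another peak of the same library 1 to 5000 bp from the edge was 44.4% and 45.1% in the 2 Trib1_LSKO libraries, and 40.5% and 41.1% in the 2 Trib1_WT libraries. The groups did not overlap. The difference of the means was 3.99 percentage points, and a two-sided exact permutation test gave p = 0.333, below which this design cannot go. The rule bears on this count, since a flanking peak can lie in another gained site, which by definition has peaks of Trib1_LSKO and none of Trib1_WT. With flanking peaks in gained sites left out, a setting added after the values were seen, the shares were 39.6% and 40.9% in Trib1_LSKO and 40.5% and 41.1% in Trib1_WT. The groups then overlapped, and the difference was -0.54 percentage points (exact permutation p = 0.667). That setting takes away peaks of Trib1_LSKO and none of Trib1_WT. With flanking peaks in lost sites left out as well, the shares were 39.6% and 40.9% in Trib1_LSKO and 38.1% and 38.6% in Trib1_WT. The groups again did not overlap, with a difference of 1.88 percentage points (exact permutation p = 0.333). The sign and size of the difference thus depended on which flanking peaks were left out. With 2 libraries per group the test cannot decide whether the groups differ. Over all 113353 sites the shares were 41.5% and 43.7% in Trib1_LSKO and 43.3% and 44.4% in Trib1_WT.

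**Figure D5:**
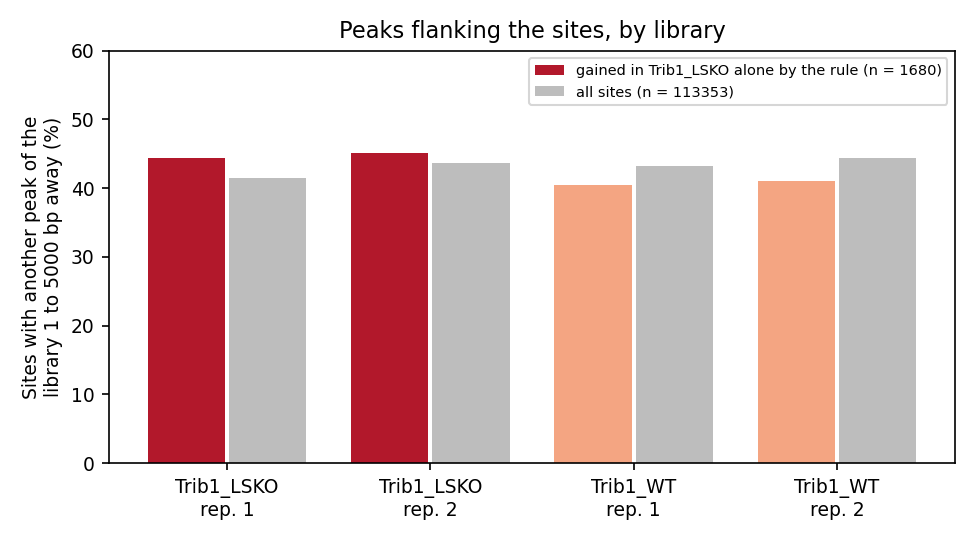
Share of sites with another peak of the library 1 to 5000 bp from the site's edge (vertical axis, percent, from 0) in each library of the first experiment, for the 1680 sites (coloured bars) and for all sites (grey bars). The 1680 sites stand at 44.4% and 45.1% in Trib1_LSKO and at 40.5% and 41.1% in Trib1_WT, with flanking peaks in gained sites included.

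The spacing of the sites along the genome was counted as well. Within 10000 bp of a site, another of the 1680 was found in 100 cases (5.95%, 95% Wilson interval 4.92% to 7.19%), and a site gained in both experiments in 97 cases (5.77%). Within 50000 bp, another of the 1680 was found in 312 cases (18.6%). These shares have no counterpart from a comparable set of sites. Whether the 1680 sites were scattered or lay in local runs was therefore not tested. A site called in all 8 lists lay within 10000 bp of 644 (38.3%, 36.0% to 40.7%), against 39.3% of all sites. The share near sites called in all 8 lists was thus close to that of all sites. Every chromosome except Y held some of the 1680. Chromosome 2 held 145 (8.63%, 7.38% to 10.1%), against 7.29% of all sites and 8.73% of the sites gained in both experiments. For 20 of the 21 chromosomes the interval held the share of all sites, with chromosome 2 as the exception, and no test was made over sites, which are not independent.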

How the data were processed

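C/EBPα binding was measured by ChIP-seq in 8 mouse liver libraries. Reads were processed with Bowtie and HOMER on mouse build mm9, per the submitters' processing notes. The authors deposited 1 peak list per library, each peak 200 bp wide with 1 signal value. No source used here gives versions, the calling threshold, any input library or how duplicate reads were handled. The last peak on chromosome 1 ended at 197173796, beyond the last gene in the GRCm38 table (195291439). Genes and sequence of mm9 were not used here, so the planned gene and motif counts were not made, and no gene is assigned to a site.

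Peaks of all lists were joined where they overlapped by at least 1 bp. Signal steps made at least 99.967% of values whole numbers of tags within 0.051. The labels do not say that replicates came from separate animals, so spreads may be technical. With 2 libraries per group no site was tested singly. Shares have 95% Wilson intervals, which cover counting of sites only. Named were the 10 strongest sites by mean percentile, the 3 strongest in no AAV list and the 3 strongest in all 4, without chromosome 18. The sites and measures were chosen with earlier results of these data known. Alternatives were other windows, stronger peaks, equal list lengths, a signal minimum, other distances and leaving out each library. Scripts ran in Python 3.11.15 with numpy 2.4.6, pandas 2.3.3 and scipy 1.17.1 and were tested on simulated lists.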

Additional observations from a re-analysis of the deposited data

How the results depend on the processing

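The number of sites, 1680, was 857 when each list was reduced to its strongest 50%, and 234 when a site had to be in the strongest 50% where present but missing from the whole list where absent (the mixed setting). It ranged from 1387 to 4767 when 1 library was left out. A group left with 1 library needs a peak in only 1 list or absence from only 1, which loosens the rule: 4767 and 4236 without Trib1_LSKO replicate 1 and 2, 2778 and 3201 without Trib1_WT replicate 1 and 2. The share in no AAV list (28.3%) was 31.3% with the strongest 50%, 12.4% in the mixed setting and 38.9% with lists of equal length (46348 peaks), and 20.5% to 48.0% with 1 library left out. It was 48.0% without AAV_Cebpa replicate 2. The share in an AAV_Null list (51.7%) was 47.1%, 61.1% and 47.9% under the same 3 settings and 35.7% to 64.5% with 1 library left out. The share in an AAV_Cebpa list (66.5%) was 83.3% in the mixed setting, 51.2% with equal lengths and 41.4% to 73.4% with 1 library left out, the lowest without AAV_Cebpa replicate 2. The median percentile (25.4, mean of the 2 Trib1_LSKO lists) was 62.5 with the strongest 50%, 63.9 in the mixed setting, 30.4 with equal lengths, and 23.1 with windows of 400 bp, with a signal of at least 6.1 and without sites that have a Trib1_WT peak within 500 bp. It was 15.7 to 26.5 with 1 library left out, lowest without Trib1_LSKO replicate 2 (15.9 without replicate 1). Removing the sites with a Trib1_WT peak within 500 bp, an alternative chosen after seeing the data, left 1517. The count and the median percentile must move where the alternative sets a threshold on strength. Leaving out an AAV library changes which sites the rule removes. The count was then 1387 and 1587 without AAV_Cebpa replicate 1 and 2, and 1402 and 1483 without AAV_Null replicate 1 and 2. The AAV shares under those settings must move with the rule, by an amount that was not tested. The cause of the other moves in the AAV shares was not tested. Under the signal minimum those shares stayed within the intervals of the main values.

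The share with a Trib1_WT peak nearby (9.70% within 500 bp) was 3.69% within 200 bp and 17.4% within 1000 bp. The share near another of the 1680 sites (5.95% within 10 kb) was 2.5% within 2 kb and 18.6% within 50 kb, and that near a site called in all 8 lists (38.3%) was 12.0% and 73.2%. The difference in flanking peaks (3.99 percentage points) turned round, to -0.54 (exact permutation p = 0.667), without flanking peaks in gained sites, and was 1.88 without those in gained or lost sites, both added after seeing the data. It was 0.357 up to 1000 bp, 3.54 up to 20000 bp, 5.18 with equal lengths and 3.63 to 4.35 with 1 library left out. With the replicate block the difference was 3.99 with an exact permutation p of 0.5, the smallest that 2 pairs can give. Deviations of same-numbered libraries had a correlation of 0.138 over 34866 sites, and nothing in the labels pairs them. The planned counts of motifs and gene positions, with their alternatives, were not run. Weak peaks of about 20 tags limit most of the set: absence from a list is absence above that list's floor.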

Other observations

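When neighbouring sites were chained at up to 10000 bp, a grouping made after the values were seen, 1580 of the 1680 sites stood alone, 43 pairs formed, and 4 groups held 3 or more. On chromosome 10, 23948670 to 23963638, 4 sites spanned 14969 bp. The strongest of them had a signal of 34.1 and 44.7 in the Trib1_LSKO lists, and the next 36.7 and 34.5. In the second experiment none of the 4 was called in AAV_Null, and 2 of the 4 were called in 1 AAV_Cebpa list each. On chromosome 5, 17730617 to 17746603, 4 sites spanned 15987 bp, none of which was called in any list of the second experiment, and none had a Trib1_WT peak within 500 bp. Their signals were lower, from 8.4 to 19.9 in Trib1_LSKO replicate 1 and from 8.3 to 19.1 in replicate 2. On chromosome 9, 32526094 to 32532865, 3 sites were all called in at least 1 AAV_Null list, and 2 of them in both AAV_Cebpa lists. The other group on chromosome 9, 28367941 to 28376327, held 3 weak sites, 2 of which were called in no list of the second experiment.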
